A study of Mus musculus with 9 samples.

Results

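The genes described here are 10 members of the killer cell lectin-like receptor (Klr) family: Klra4, Klra7, Klra8, Klra13-ps and Klra21 of the Ly49 group, and Klrb1c, Klrd1, Klre1, Klrg1 and Klrk1. They were found by symbol among the 23238 gene symbols of the count tables, and all 10 passed the filter on low counts that left 10107 genes for testing. They were selected on their measured levels, because they were lower in brain than in blood monocytes of NMO mice, so that difference is given below as a description. No threshold set the choice. The data are read counts of 9 QuantSeq 3′ libraries, in which reads come from the 3′ ends of transcripts. Monocytes were sorted as CD45+CD11b+P2ry12-Ly6C+Ly6G- cells 1 day after the model was made, and each library came from a pool of 5 mice. Nor_Bl_mono are blood monocytes of non-treated mice, NMO_Bl_mono are blood monocytes of mice with the neuromyelitis optica (NMO)-like lesion, and NMO_Br_mono are monocytes of the brains of such mice, with 3 libraries each. All groups came from wild-type female C57BL/6N mice aged 12 weeks. The lesion was made by injecting patient NMO-IgG with human complement into the striatum, and the blood and brain groups also differ in the tissue the cells came from. Their preparation differed too. Blood cells were isolated with Lymphoprep medium, and brain cells after perfusion, enzyme digestion, a Percoll step and red cell lysis. Tissue and preparation cannot be told apart in the comparisons of brain with blood. The control group was not injected, so the injection itself and the antibody cannot be told apart in the comparison of the blood groups.

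Klr receptors are C-type lectin-like membrane proteins encoded side by side in the natural killer (NK) gene complex. They are best known from NK cells and some T cells, where inhibitory members carry signalling motifs that recruit phosphatases and activating members pair with the adaptors DAP12 (Tyrobp) or DAP10 (Hcst). Ly49 receptors and the Klrd1 (CD94) heterodimers read class I major histocompatibility molecules on other cells, and Klrk1 (NKG2D) reads stress-induced ligands. Most of these genes are not among the genes that define monocytes.

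In the RefSeq annotation of GRCm38.p6, 9 of the 10 genes lie on chromosome 6, and Klra21 has no entry there. Klrg1 is at chr6:122270596-122282833, outside the main cluster. Within the cluster the order is Klrb1c (chr6:128778485-128788641), Klre1 (chr6:129559365-129585828), Klrd1 (chr6:129588092-129598775), Klrk1 (chr6:129610323-129623903), Klra4 (chr6:130043730-130067301), Klra8 (chr6:130115226-130129898), Klra7 (chr6:130218605-130233322) and Klra13-ps (chr6:130291161-130306432), the last annotated as a transcribed pseudogene. The submitters' processing notes name the build mm10, which is GRCm38. A promoter window of 300 bases (250 before and 50 after a start listed in the RefSeq promoter table) was present for 6 of the 10 genes, and the most upstream listed start was used. That start is the outer end of the gene for Klra7, Klra8 and Klrb1c, and lies 30 bases inside the gene for Klra4, 39 for Klrk1 and 18848 for Klre1. The windows of Klra4 and Klra8 were identical at 259 of 299 aligned bases (86.6%), those of Klra4 and Klra7 at 230 of 288 (79.9%), and those of Klra7 and Klra8 at 231 of 289 (79.9%). The 150 bases before the listed start are shown for these 3 Ly49 genes to show how alike these neighbours are in sequence. They lie outside the 3′ ends that were read and say nothing of shared reads. Capitals mark runs of at least 8 bases that occur in all 3, which cover 42 of the 150 bases of each. All 3 genes are on the minus strand, and the sequences (RefSeq, GRCm38.p6) read 5′ to 3′ on it, from chr6:130067272-130067421, chr6:130129899-130130048 and chr6:130233323-130233472 in turn.
Klra4: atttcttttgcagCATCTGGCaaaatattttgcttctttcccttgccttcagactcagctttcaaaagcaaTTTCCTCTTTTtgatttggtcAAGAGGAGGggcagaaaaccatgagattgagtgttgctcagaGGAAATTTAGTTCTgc
Klra8: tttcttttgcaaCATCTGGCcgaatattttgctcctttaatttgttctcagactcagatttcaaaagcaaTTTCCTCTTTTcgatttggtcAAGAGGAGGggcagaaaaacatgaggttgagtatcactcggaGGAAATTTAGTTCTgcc
Klra7: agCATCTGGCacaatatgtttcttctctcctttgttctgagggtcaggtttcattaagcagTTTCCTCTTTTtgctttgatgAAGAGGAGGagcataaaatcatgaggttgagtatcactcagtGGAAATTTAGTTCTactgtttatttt

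Motifs of 3 transcription factor families known from NK cells were searched on both strands of the promoter windows. The RUNX core TGTGGT occurred in 3 of the 6 windows (Klrb1c, Klre1 and Klrk1) and in 16.8% of all 32851 windows of the RefSeq table. The T-box motif AGGTGTGA occurred in 0 of the 6 and in 1.28% of all windows, and the ETS motif AGGAAGT in 0 of the 6 and in 9.35%. The RUNX cores are shown in capitals with up to 30 bases on each side, since they are the letters that these windows share and the Ly49 windows lack. The core began at position -89 in Klrb1c (chr6:128788695-128788760, minus strand), -229 in Klre1 (chr6:129577963-129578019, plus strand) and -129 in Klrk1 (chr6:129623958-129624023, minus strand), counted from the listed start used here, so the Klre1 core lies within that gene's annotated span. A match in letters is not a measured binding site.
Klrb1c: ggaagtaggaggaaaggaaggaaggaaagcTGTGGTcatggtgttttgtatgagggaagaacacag
Klre1: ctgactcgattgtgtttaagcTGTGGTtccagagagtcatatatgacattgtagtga
Klrk1: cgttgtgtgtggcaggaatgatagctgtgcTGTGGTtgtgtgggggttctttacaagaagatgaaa

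Total counts ranged from 7584649 to 10419647 per library. The ribosomal RNA entry Rn45s held 28.4% to 43.6% of a library's counts and stayed in the totals used for CPM. Levels below are CPM, which are counts scaled to the same library total and corrected with TMM factors, which ranged from 0.800 to 1.46. A limit of 3 counts, taken as what a count of 0 allows, corresponds to 0.339, 0.285 and 0.298 CPM in NMO_Br_mono replicates 1, 2 and 3, and it covers counting error only, since no molecular identifiers are described. Libraries of the same group differed far beyond counting error, with a common dispersion of 2.87. NMO_Bl_mono replicate 3 stood apart, because 3 counts or fewer were left in it for 22.3% of those genes that reached 50 CPM in its group's other libraries. For NMO_Br_mono replicate 2 this was 8.26%, and no other library exceeded 1.94%. Results that rest on these libraries are given with and without them. In pooled sorted cells, fewer cells of a type and less RNA per cell cannot be told apart.

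**Figure D1:**
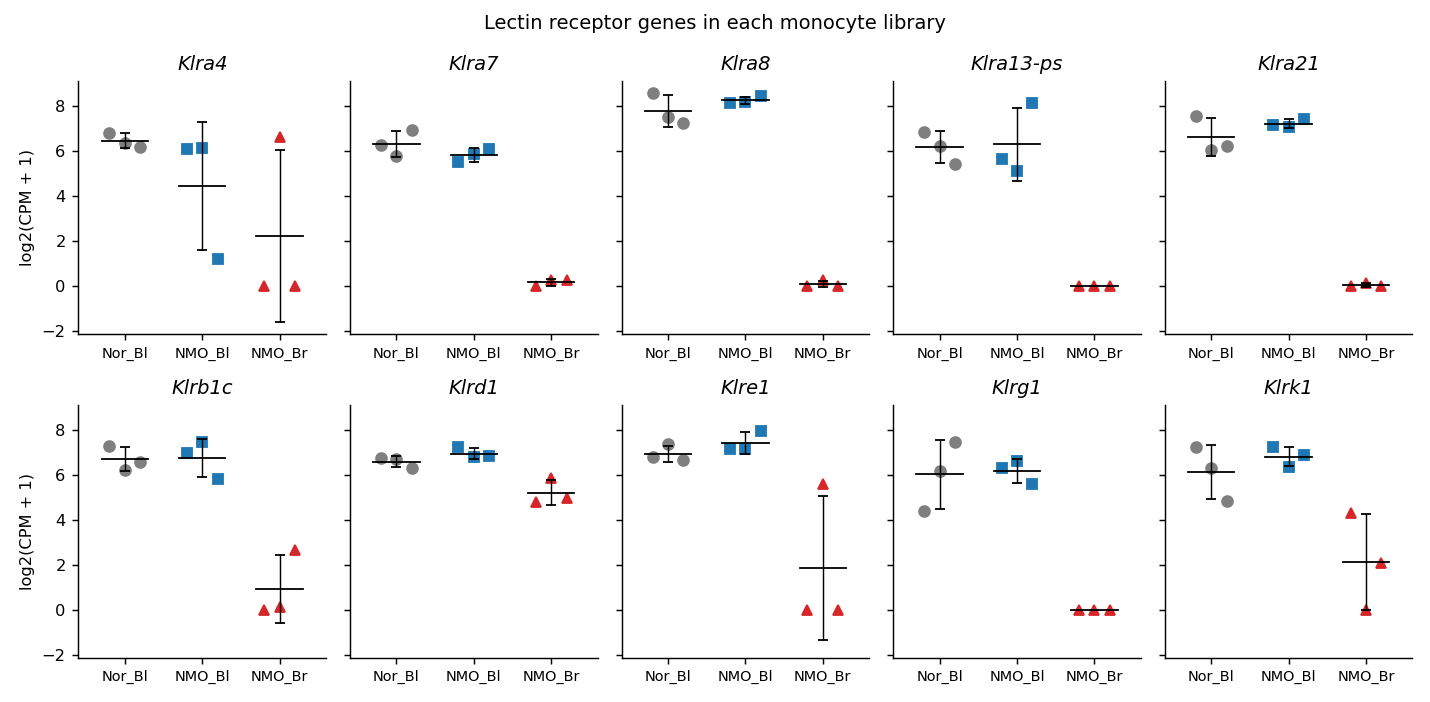
Level of each of the 10 receptor genes in each library, as log2(CPM + 1), by group (3 libraries per group). Bars show the mean and SD of the log2 values. In NMO_Br_mono, Klra7, Klra8, Klra13-ps, Klra21 and Klrg1 lie at or near 0 in every library, while Klra4 and Klre1 are high in replicate 2 alone and Klrd1 stays detected in all 3.

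Klra8 encodes Ly49H, an activating receptor known for recognising a protein of mouse cytomegalovirus. It was measured at 393, 187 and 151 CPM in Nor_Bl_mono replicates 1, 2 and 3. In NMO_Bl_mono it was at 283, 293 and 353 CPM, and in NMO_Br_mono at 0, 0.19 and 0 CPM, from 2 counts in all. The blood groups overlapped and every brain library lay below every blood library. Pooled over the libraries, NMO_Bl_mono held 4626 times the Klra8 level of NMO_Br_mono (95% counting interval 1280 to 38207). Without NMO_Br_mono replicate 2, which held both brain counts, Klra8 was at least 972-fold lower in brain. In the fit of NMO_Br_mono against NMO_Bl_mono the log2 fold change was -11.92 (SE 1.14, adjusted p = 0.000598 by edgeR's quasi-likelihood test with Benjamini-Hochberg adjustment over all 10107 genes).

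Klra21 followed Klra8 in its counts. It was at 192, 66.7 and 73.9 CPM in Nor_Bl_mono, at 142, 135 and 173 CPM in NMO_Bl_mono, and at 0, 0.095 and 0 CPM in NMO_Br_mono. In the 6 blood libraries the Klra21 count was between 35.7% and 50.2% of the Klra8 count. The pooled ratio of NMO_Bl_mono to NMO_Br_mono was 4475 (counting interval 803 to 176800), resting on 1 count in NMO_Br_mono replicate 2 (at least 471-fold without that library), and the fitted log2 fold change was -11.65 (SE 1.42, adjusted p = 0.00213). Since the authors counted reads that align to several places, how much of the Klra21 count comes from Klra8 transcripts was not tested.

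Klra7 encodes Ly49G, an inhibitory receptor for class I molecules. Its levels were 77.1, 53.7 and 122 CPM in Nor_Bl_mono, 45.1, 57.9 and 68.5 CPM in NMO_Bl_mono, and 0, 0.19 and 0.20 CPM in NMO_Br_mono. The brain libraries, with 4 counts together, were again below all blood libraries. The pooled ratio was 433 (counting interval 169 to 1589). Its log2 fold change of -8.62 (SE 1.68) did not pass the threshold (adjusted p = 0.0553) with all libraries and did without NMO_Bl_mono replicate 3 (-8.45, adjusted p = 0.0249).

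Klra13-ps, the pseudogene of the group, had no count in any brain library. It was at 115, 75.4 and 42.5 CPM in Nor_Bl_mono and at 49.9, 34.0 and 288 CPM in NMO_Bl_mono, where replicate 3 stood far above the others. Against a limit of 3 counts per library it was at least 403-fold lower in NMO_Br_mono than in NMO_Bl_mono, and at least 136-fold without NMO_Bl_mono replicate 3. Klra13-ps had a fitted log2 fold change of -13.16 (SE 1.91, adjusted p = 0.0149), and -11.55 (adjusted p = 0.0217) without NMO_Bl_mono replicate 3. The call was lost with only these 2 groups in the fit (adjusted p = 0.196). In the GENCODE M21 transcripts, 72 of the 499 distinct 75-base windows (the read length) in the last 300 bases of Klra13-ps transcripts occur also in Klra7, so reads of the pair can be counted for either gene. The same search found 0 of 226 windows shared for Klra8 and for Klra4, but it holds no transcript of Klra12, Klra15, Klra18 or Klra21.

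Klra4 encodes Ly49D, an activating receptor that pairs with DAP12, and it was the member whose groups overlapped. It was at 113, 82.9 and 72.5 CPM in Nor_Bl_mono, at 67.1, 70.2 and 1.27 CPM in NMO_Bl_mono, and at 0, 99.0 and 0 CPM in NMO_Br_mono. Its mean was 33.0 ± 57.2 CPM in brain and 46.2 ± 38.9 CPM in NMO blood (SD, n = 3 libraries each). Between these groups its fitted log2 fold change was -0.48 (SE 2.03, adjusted p = 1). A single library carried the brain value: without NMO_Br_mono replicate 2 the log2 fold change was -11.71 (adjusted p = 0.167), and without NMO_Br_mono replicate 1 or 3 it turned to 0.10 or 0.11.

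The Klra4 count of that brain library cannot be assigned to Klra4 alone. In NMO_Br_mono replicate 2, Klra4, Klra12, Klra15 and Klra18 each had exactly 1041 counts. Klra4 and Klra12 also had identical counts in Nor_Bl_mono replicate 2 (784 each) and in NMO_Bl_mono replicate 2 (645 each), but not in the other blood libraries. In NMO_Bl_mono replicate 3, where Klra8 had 3879 counts, Klra4 had 14, Klra12 had 0 and Klra15 had 3. Since multiple alignments were counted, which of these symbols the reads came from cannot be told apart.

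**Figure D2:**
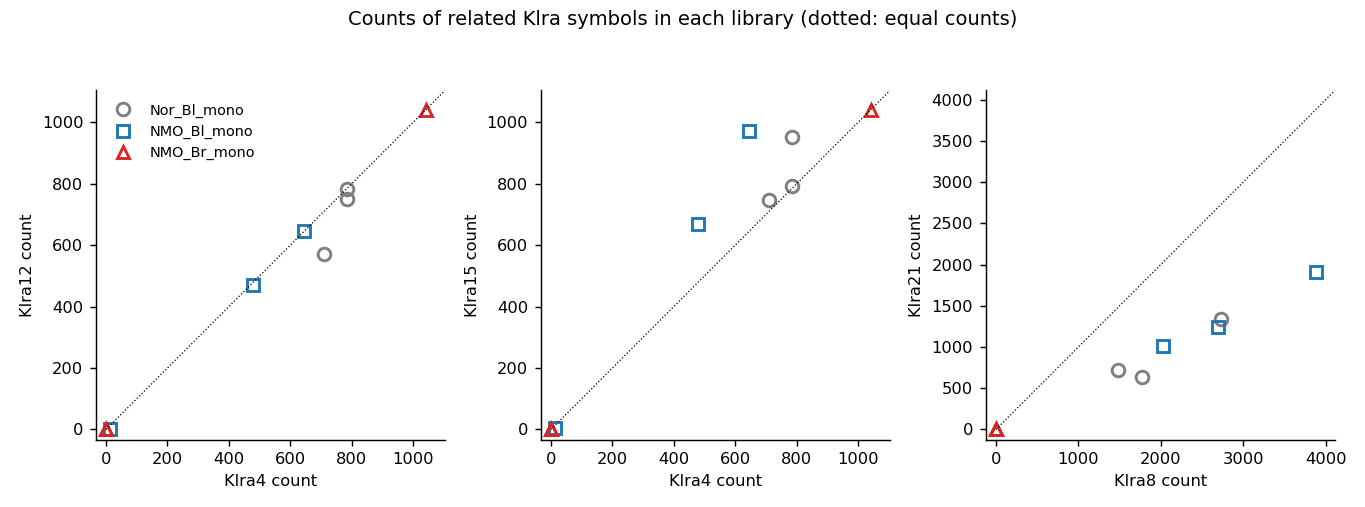
Read counts of Klra12 against Klra4, Klra15 against Klra4, and Klra21 against Klra8, with 1 point per library. The dotted line marks equal counts. NMO_Br_mono replicate 2 lies on it at 1041 counts in the first 2 panels, and Klra21 stays below it, at 35.7% to 50.2% of the Klra8 count in the 6 blood libraries.

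The sum over all 20 Klra symbols was 1871, 1120 and 861 CPM in Nor_Bl_mono, 1318, 1321 and 1303 CPM in NMO_Bl_mono, and 96.8, 471 and 85.6 CPM in NMO_Br_mono. A read counted for several symbols enters this sum more than once, and the 471 CPM hold the same 99.0 CPM 4 times. With identical counts in a library entered once, a choice made after the values were seen, the sum of NMO_Br_mono replicate 2 was 174 CPM. All brain libraries were below all blood libraries with either way of summing. In brain, the mean of the sum was 16.6% ± 16.7 (SD, n = 3) of the NMO_Bl_mono mean as counted and 9.21% ± 3.74 with identical counts entered once. Without NMO_Br_mono replicate 2 these shares were 6.94% and 7.06%. For the 5 Ly49 members alone the share was 4.84% ± 8.35, carried by the 99.0 CPM that cannot be assigned to Klra4, and 0.014% without that library. In NMO_Br_mono replicates 1 and 3 most of the sum came from Klra2 (81.2 and 66.6 CPM), which encodes Ly49B, a receptor known from myeloid cells. Klra2 was at 0 CPM in NMO_Br_mono replicate 2 and NMO_Bl_mono replicate 3 and at 48.6 to 120 CPM in the other blood libraries, and its fitted log2 fold change between brain and NMO blood was 0.23 (SE 1.91, adjusted p = 1).

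Klrg1 encodes an inhibitory receptor of mature NK and memory T cells that binds cadherins. It had no count in any brain library. Its levels were 20.1, 72.4 and 178 CPM in Nor_Bl_mono and 77.6, 97.4 and 47.4 CPM in NMO_Bl_mono, so the spread within Nor_Bl_mono covered the whole of the other blood group. It was at least 241-fold lower in NMO_Br_mono than in NMO_Bl_mono, with a fitted log2 fold change of -12.42 (SE 1.96, adjusted p = 0.0235). That call was lost in 4 of the 9 fits with a library left out: without NMO_Bl_mono replicate 1 (adjusted p = 0.0511) or 2 (0.0580), without NMO_Br_mono replicate 3 (0.0598) and without Nor_Bl_mono replicate 3 (0.0883). It was also lost with only these 2 groups in the fit (0.330) and with the replicate number as a block (0.0733).

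Klrb1c encodes NK1.1, the antigen by which NK cells of C57BL/6 mice are commonly stained. It was at 157, 74.6 and 95.7 CPM in Nor_Bl_mono, at 125, 176 and 54.9 CPM in NMO_Bl_mono, and at 0, 0.095 and 5.37 CPM in NMO_Br_mono. The mean in NMO blood was 65.1 times that in brain, and without NMO_Br_mono replicate 3, which left 1 count in brain, the pooled ratio was 2207 (counting interval 396 to 87194). Its fitted log2 fold change of -6.01 (SE 1.67) did not pass the threshold (adjusted p = 0.348). It did without that library, the one with the most Klrb1c counts in brain (-10.85, adjusted p = 0.0186).

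Klrk1 and Klrd1 were the members with over 3 counts in more than 1 brain library. Klrk1 (NKG2D), an activating receptor that signals through DAP10, was at 149, 79.7 and 27.9 CPM in Nor_Bl_mono, at 150, 81.0 and 117 CPM in NMO_Bl_mono, and at 18.7, 0 and 3.28 CPM in NMO_Br_mono. Klrd1 (CD94), the partner chain of NKG2 proteins, was at 107, 105 and 78.8 CPM in Nor_Bl_mono, at 151, 110 and 113 CPM in NMO_Bl_mono, and at 27.3, 57.1 and 30.6 CPM in NMO_Br_mono. Both were lower in every brain library than in every blood library of either group. The mean in NMO blood was 15.9 times the brain mean for Klrk1 and 3.25 times for Klrd1. The Klrk1 ratio rested on NMO_Br_mono replicate 1 and was 70.7 without it (log2 fold change -6.14). Fitted log2 fold changes were -3.99 (SE 1.56) and -1.70 (SE 0.78), each with an adjusted p of 0.802.

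Klre1 encodes a receptor that pairs with Klri proteins on NK cells. It was at 109, 164 and 100 CPM in Nor_Bl_mono and at 142, 142 and 252 CPM in NMO_Bl_mono. In NMO_Br_mono it was at 0, 47.1 and 0 CPM, again with replicate 2 as the only library with counts. The fitted log2 fold change was -3.51 (SE 1.77, adjusted p = 0.802) with that library and -13.65 (adjusted p = 0.00316) without it.

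Over the 10 genes, NMO_Br_mono against NMO_Bl_mono called 4 lower (Klra8, Klra21, Klra13-ps and Klrg1) and 0 higher, where 0.228% of all genes tested were called lower. Of the 10, 8 had an unadjusted p under 0.05, all lower, against 3.84% of all genes tested. DESeq2's Wald test called 6 lower and 0 higher, with no adjusted p for Klra4 and Klre1, against 2.68% of all genes with an adjusted p that were called lower. Without NMO_Bl_mono replicate 3, edgeR called 5 lower (Klra7 added), and without NMO_Br_mono replicate 2 also 5 (Klre1 added). The groups did not overlap for 9 of the 10 genes, against 6.05% of all genes tested that were lower without overlap. The members were chosen on this contrast, so nothing is read from these shares. The median fitted log2 fold change was -7.32 over the members and 0.05 over all genes tested, and -6.78 for the members with those at or under 3 counts in every brain library set to their bound.

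The comparison of NMO_Bl_mono with Nor_Bl_mono asks whether the receptor genes in blood monocytes differed 1 day after the lesion was made. It shares the NMO_Bl_mono libraries with the contrast that chose the members. By edgeR's quasi-likelihood test 0 of the 10 genes were called, 0 had an unadjusted p under 0.05, and DESeq2's Wald test called 0. Over all 10107 genes, 0% were called by edgeR, with 47 genes higher and 25 lower at an unadjusted p under 0.05 and a fold change of 1.2, and 51 higher and 21 lower by DESeq2. Fitted log2 fold changes of the members ran from -0.95 (SE 2.04) for Klra4 to 0.68 (SE 1.11) for Klra13-ps, with 7 above and 3 below 0, a median of 0.36, and a median of -0.16 over all genes tested. The standard errors, from 0.70 for Klra8 to 2.04 for Klra4, were larger than the fitted change of every member, so changes of about the size of these errors could not be detected.

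Only Klra4 and Klrd1 had blood groups that did not overlap, 2 of 10 genes against 6.8% of all genes tested in either direction. Klrd1 averaged 125 ± 22.7 CPM in NMO_Bl_mono and 96.8 ± 15.7 CPM in Nor_Bl_mono (SD, n = 3 each), with a log2 fold change of 0.36 (SE 0.76, adjusted p = 1). Klra4 was lower in NMO_Bl_mono, where it averaged 46.2 ± 38.9 CPM against 89.5 ± 21.1 CPM. Without NMO_Bl_mono replicate 3, which was at 1.27 CPM, the NMO_Bl_mono mean of Klra4 was 68.6 CPM. For Klra8, the mean was 310 ± 37.4 CPM in NMO_Bl_mono and 243 ± 130 CPM in Nor_Bl_mono, a difference within the spread of the Nor_Bl_mono libraries. The direction for Klra13-ps rested on NMO_Bl_mono replicate 3, without which the log2 fold change was -0.89. Klrb1c turned to -0.09 without Nor_Bl_mono replicate 2 and to -0.28 without NMO_Bl_mono replicate 2, and Klrg1 turned from -0.28 to 0.68 without Nor_Bl_mono replicate 3.

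Against the blood monocytes of non-treated mice, NMO_Br_mono had 5 of the 10 genes called lower: Klra8 (log2 fold change -11.57, adjusted p = 0.000572), Klra21 (-11.21, 0.00319), Klra13-ps (-12.48, 0.0204), Klrg1 (-12.70, 0.0249) and Klra7 (-9.18, 0.0454). Of all genes tested, 0.218% were called lower in this comparison, which shares the NMO_Br_mono libraries with the contrast that chose the members. The groups did not overlap for 9 of the 10, against 9.37% of all genes tested that were lower without overlap. An unadjusted p under 0.05 was found for 7 of the 10, all lower, against 4.07% of all genes tested. DESeq2's Wald test called 6 of the 10, against 2.56% of all genes with an adjusted p that were called lower. The calls of Klra8 and Klra21 held in every alternative fit, and Klra13-ps lost its call with only these 2 groups in the fit (adjusted p = 0.0671). Klrg1 lost its call in 3 of the 9 fits with a library left out, without Nor_Bl_mono replicate 3 (0.145) and NMO_Br_mono replicates 1 (0.0505) and 3 (0.0667), with only these groups (0.0691) and under the replicate block (0.0692). Klra7 kept its call in 1 of those 9 fits, the one without NMO_Bl_mono replicate 3 (adjusted p = 0.0119), with a highest adjusted p of 0.236 without Nor_Bl_mono replicate 3. It also lost its call with RLE factors (0.0504), with only these groups (0.0671) and under the block (0.125). Klra13-ps was at least 252-fold and Klrg1 at least 293-fold lower in brain, the latter at least 150-fold without Nor_Bl_mono replicate 3. The remaining fitted changes were -5.89 (SE 1.66) for Klrb1c, -3.55 (SE 1.53) for Klrk1, -2.98 (SE 1.73) for Klre1, -1.44 (SE 2.07) for Klra4 and -1.34 (SE 0.77) for Klrd1. All brain counts of Klra4 and Klre1 were in NMO_Br_mono replicate 2. Without that library Klra4 was at least 281-fold and Klre1 at least 390-fold lower in brain. With a library left out, fitted changes ranged from -12.66 to -0.84 for Klra4 and from -13.13 to -2.39 for Klre1. For Klrb1c the range was -10.73 to -5.31. Klre1 and Klrb1c were each called in 1 of those 9 fits.

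**Figure D3:**
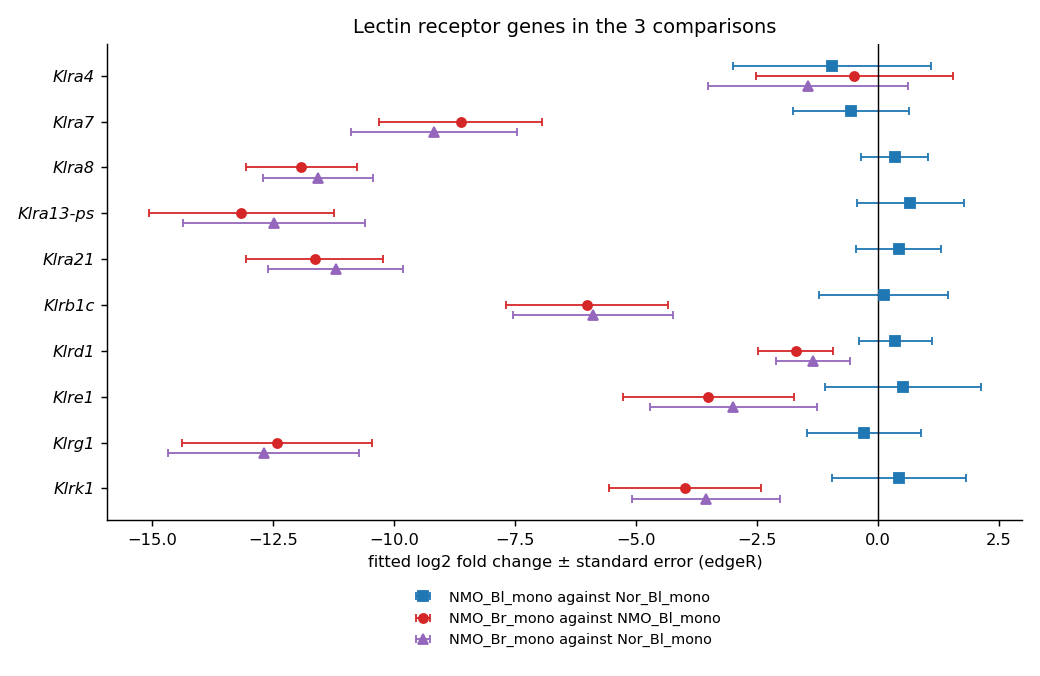
Fitted log2 fold change ± standard error (edgeR, 3 libraries per group) of the 10 genes in the 3 comparisons. The error is the absolute fitted change divided by the square root of the test's F statistic. Klra13-ps and Klrg1 had no count in brain, so their fitted changes there do not measure a size. Changes between the blood groups lie between -0.95 and 0.68. Both comparisons with brain share the NMO_Br_mono libraries, and Klra4 is the gene whose error bars reach 0 in both.

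Of the other Klr genes and their neighbours in the NK gene complex, 17 passed the filter. Between NMO_Br_mono and NMO_Bl_mono edgeR called 0 of them, 8 had an unadjusted p under 0.05, all lower, and DESeq2's Wald test called 6 lower. Their median log2 fold change was -5.08. Klrc1 (NKG2A), the inhibitory partner of Klrd1, was at 123, 114 and 234 CPM in NMO_Bl_mono and at 5.99, 0.095 and 0 CPM in NMO_Br_mono (log2 fold change -6.27, SE 1.67, adjusted p = 0.312). Klri2, which encodes a partner of Klre1, was at 109, 91.3 and 0 CPM in NMO_Bl_mono and at 6.22, 0 and 0 CPM in NMO_Br_mono. The inhibitory receptor gene Klrb1b was at 74.4, 97.9 and 215 CPM and at 11.4, 0 and 0 CPM in the same groups. In Klra9, NMO_Br_mono replicate 2 again held all the brain counts (74.0 CPM).

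The cluster was then described by position, a choice made after its values were seen. From Klrb1a to Klra2 (chr6:128609227-131247716) the RefSeq table lists 92 genes, of which 32 were tested. For the 19 Klr genes among them the median change of brain against NMO blood was -6.27 on the log2 scale, with 18 fitted lower and 2 called. They include all members except Klrg1 and Klra21, and the 2 called, Klra8 and Klra13-ps, are members. Since the members were chosen on this contrast, nothing is read from how the Klr genes differ from their neighbours. The 13 other genes, several of which encode lectin-like receptors of myeloid cells, had a median of -0.02, with 7 fitted lower and a lowest adjusted p of 0.651 (Clec1b, a platelet receptor). Among these, Clec7a (Dectin-1) was higher without overlap in brain (log2 fold change 1.02, SE 0.54, adjusted p = 0.803) and Clec12a had a log2 fold change of -0.59 (SE 0.84, adjusted p = 1).

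**Figure D4:**
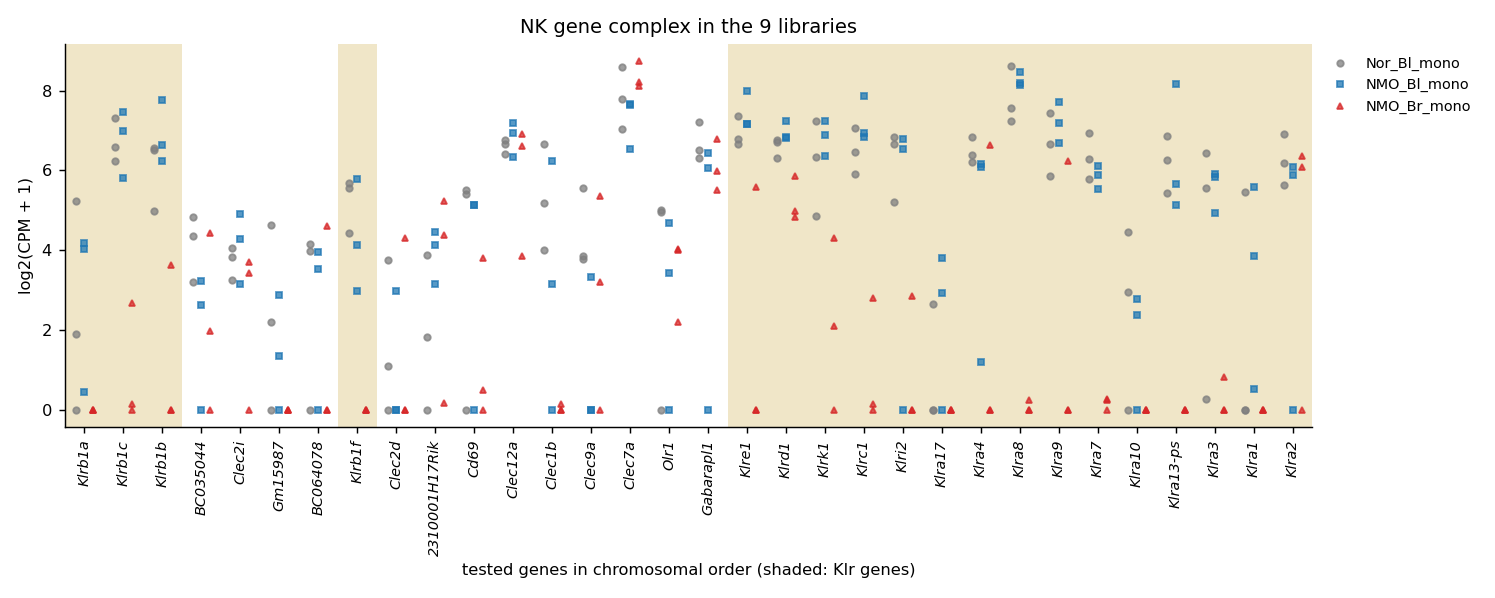
Levels of the 32 tested genes of the NK gene complex in each library, as log2(CPM + 1), in chromosomal order. Shading marks the 19 Klr genes, where most NMO_Br_mono points lie at or near 0, while the 13 unshaded genes include several, such as Clec7a and Clec12a, with brain points at the height of the blood points.

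The partners through which the receptors signal differed among themselves. Of 17 tested genes, edgeR called 0 and DESeq2's Wald test 1 (lower), 3 had an unadjusted p under 0.05, and their median was -0.70 on the log2 scale. Tyrobp (DAP12), also an adaptor of myeloid receptors, was at 703, 748 and 446 CPM in NMO_Bl_mono and at 892, 392 and 542 CPM in NMO_Br_mono (log2 fold change -0.06, SE 0.40, adjusted p = 1). Fcer1g, which myeloid cells use with Fc receptors, was at 768, 1176 and 211 CPM and at 1433, 744 and 940 CPM. Cd247, the zeta chain of T and NK cells, was at 35.3, 74.2 and 0 CPM in NMO_Bl_mono and at 0, 0.095 and 0 CPM in NMO_Br_mono (log2 fold change -9.63, SE 3.23, adjusted p = 0.679). Hcst (DAP10), the partner of Klrk1, was at 100, 58.2 and 0 CPM and at 4.41, 46.7 and 12.7 CPM.

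Of the ligands of these receptors, 7 were tested. EdgeR called 0, 1 had an unadjusted p under 0.05, DESeq2's Wald test called 0, and their median was -0.22 on the log2 scale. The class I heavy chains H2-D1 and H2-K1, read by Ly49 receptors, had log2 fold changes of -0.22 (SE 0.28, adjusted p = 1) and -0.85 (SE 0.28, adjusted p = 0.598). Most genes of the Klrk1 ligand families were at or near 0 in blood, and counts of Raet1b (0.79 and 23.2 CPM) and Raet1e (1.24 and 18.1 CPM) appeared in NMO_Br_mono replicates 1 and 3 and of Ulbp1 (28.3 CPM) in NMO_Br_mono replicate 2, in each case too few libraries to pass the filter. Cdh1, which encodes the Klrg1 ligand E-cadherin, was at 13.9, 0 and 0 CPM in NMO blood, and its brain values were 22.7, 32.9 and 105 CPM (log2 fold change 3.54, SE 2.86, adjusted p = 1).

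Of the tested markers of NK cells other than lectin receptors, 22 of 24 were fitted lower in brain than in NMO blood. Over all 10107 genes tested, 4910 were fitted lower. Of the 24 markers, 12 were lower without overlap, against 6.05% of all genes tested. The list was drawn up with earlier results of these data known, and 24 of its 25 genes were in the tables and tested. Their summed level was 4493 to 5855 CPM in Nor_Bl_mono, 5205 to 5597 CPM in NMO_Bl_mono and 193 to 702 CPM in NMO_Br_mono. Between brain and NMO blood, 5 of the 24 were called lower (Ccl5, Gzmb, Il2rb, Txk and Nkg7), against 0.228% of all genes tested. Of these, Gzmb, Il2rb and Txk are named after their values were seen. An unadjusted p under 0.05 was found for 15, all lower, against 3.84% of all genes tested. The median change of the 24 was -5.10 on the log2 scale. In each NMO_Br_mono library 13 of the 24 were at 0, and 6 were at 0 in all 3. The number at 0 was 0, 0 and 2 in Nor_Bl_mono replicates 1, 2 and 3 and 0, 1 and 10 in those of NMO_Bl_mono. Gzma, which encodes granzyme A of cytotoxic granules, was at 1233, 1455 and 1811 CPM in NMO_Bl_mono and at 4.30, 163 and 47.5 CPM in NMO_Br_mono. Nkg7, a granule membrane protein gene, was at 460, 454 and 560 CPM and at 17.0, 61.4 and 24.7 CPM. The defining NK genes Eomes and Ncr1, named after their values were seen, differed. Eomes was at 313, 297 and 622 CPM in NMO_Bl_mono, and its values in NMO_Br_mono were 0, 0 and 36.0 CPM. Ncr1 was at 33.8, 58.8 and 0 CPM in NMO_Bl_mono, and its values in NMO_Br_mono were 0, 13.5 and 19.6 CPM, so its groups overlapped. That overlap rested on NMO_Bl_mono replicate 3, without which NMO_Bl_mono lay above every brain value of Ncr1. Cd244, Xcl1, Prf1 and Slamf7, also named after their values were seen, differed less in their means. In NMO_Bl_mono and NMO_Br_mono, Cd244 averaged 60.9 and 73.8 CPM and Xcl1 30.1 and 32.3 CPM. These were the 2 fitted higher in brain. Prf1 averaged 27.5 and 22.8 CPM and Slamf7 68.9 and 56.9 CPM. Whether NK cells contributed to the levels of the members was not tested.

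The other marker lists gave these values in the same libraries. Monocyte markers summed to 6532 to 8421 CPM in Nor_Bl_mono, 4104 to 8566 CPM in NMO_Bl_mono and 7662 to 11707 CPM in NMO_Br_mono. Between brain and NMO blood, edgeR called 0 of 12, 3 had an unadjusted p under 0.05 (2 higher and 1 lower), and DESeq2 called 1 higher. NMO_Bl_mono replicate 3 had 2 of the 12 at 0, and no gene of the list was at 0 in any other library. T cell markers summed to 50.6 to 113 CPM, 32.0 to 53.4 CPM and 0.095 to 11.8 CPM in the 3 groups in the same order. At least 10 of the 13 genes were at 0 in each NMO_Br_mono library. In blood this number was 4, 8 and 10 in Nor_Bl_mono replicates 1, 2 and 3 and 4, 10 and 11 in those of NMO_Bl_mono. Of the 13 genes, 8 were at 0 in all 3 brain libraries, 2 of them in all 9 libraries. Cd28, a T cell costimulatory receptor, was one of the 8 and was at 0 to 20.9 CPM in NMO_Bl_mono, while Bcl11b reached 4.28 CPM in brain. B cell markers summed to 1.27 to 88.6, 0.091 to 90.8 and 10.6 to 37.9 CPM. Platelet markers summed to 550 to 3287, 630 to 2735 and 0 to 39.9 CPM, with 2 of 9 called lower between brain and NMO blood, so they were lower in brain too. Microglia markers summed to 143 to 417, 0.091 to 252 and 910 to 1017 CPM, and neutrophil markers to 85.0 to 312, 127 to 311 and 444 to 1875 CPM, each sum highest in NMO_Br_mono without overlap. All 10 tested microglia genes were fitted higher in brain than in NMO blood, and edgeR called 0. The highest was Cx3cr1, which the study lists as shared with monocytes. It was at 544, 297 and 337 CPM in brain and 112 to 322 CPM in Nor_Bl_mono. Tmem119 and P2ry12, named after their values were seen, were uneven in brain (78.4, 0 and 21.0 CPM, and 23.7, 69.7 and 9.95 CPM). P2ry12 was at 43.4, 35.0 and 0.92 CPM in Nor_Bl_mono. The neutrophil genes did not move together. S100a8 ranged from 148 to 813 CPM in brain and from 0 to 139 CPM in NMO blood, and S100a9 from 78.8 to 659.5 and from 0 to 126 CPM. Retnlg, named after its values were seen, had no count in brain and was at 0 to 78.9 CPM in NMO_Bl_mono. Of the 9 tested neutrophil genes, edgeR called 0, 3 had an unadjusted p under 0.05 (2 higher and 1 lower), and DESeq2's Wald test called 1 higher and 1 lower. Whether cells of these types were in the sorted pools, and whether they moved the members, was not tested.

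**Figure D5:**
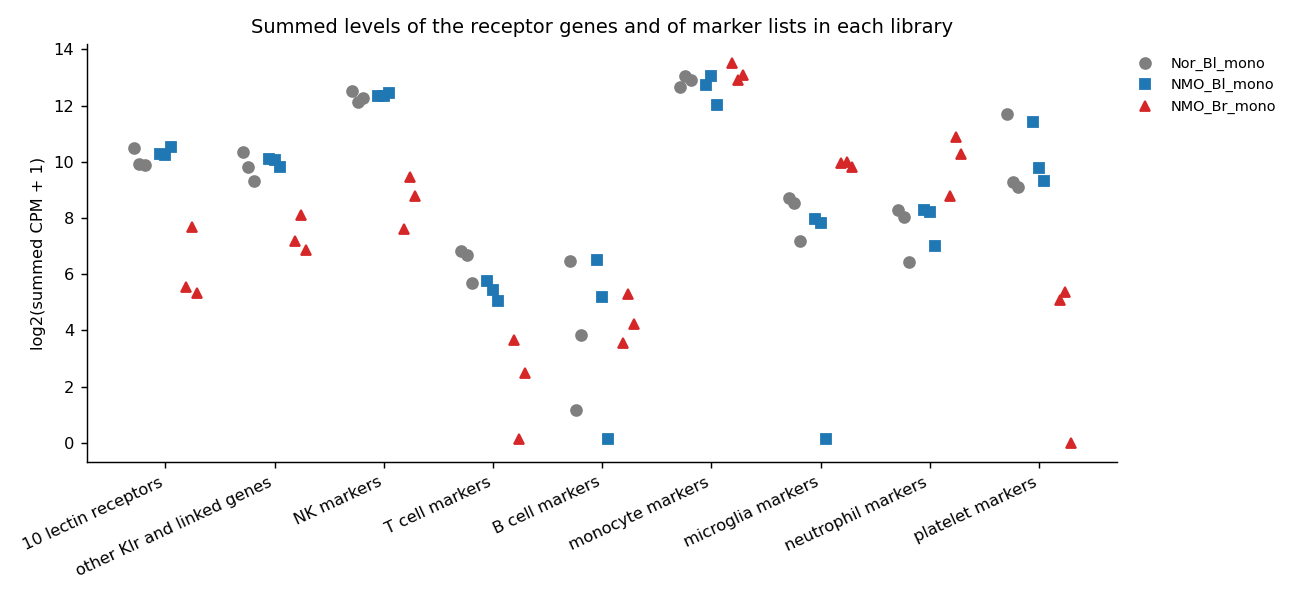
Summed CPM of the 10 receptor genes and of 8 gene lists in each library, as log2(summed CPM + 1), by group. The receptors, the other Klr genes, the NK markers, the T cell markers and the platelet markers are lower in all 3 NMO_Br_mono libraries than in all blood libraries, the microglia and neutrophil markers are higher, and the monocyte and B cell markers overlap.

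The genes outside all lists with the profile most like the mean profile of the members were found by the root mean square difference of centred log2(CPM + 1) over the 9 libraries. They were Sytl3 (0.54), Proser1 (0.55), Qrfp (0.62), Gem (0.70), Adamts14 (0.74), Mllt3 (0.78), 5830416P10Rik (0.78), Samd3 (0.79), Cma1 (0.80) and Strbp (0.80). The members themselves lay at 0.57 (Klra7) to 2.39 (Klra4), and the median over all genes compared was 2.93. Sytl3 was at 93.7, 81.0 and 101 CPM in NMO_Bl_mono and at 0, 0.095 and 0 CPM in NMO_Br_mono. With a pseudocount of 0.1 in place of 1, 5 of these 10 genes stayed among the 10 most alike, so the order depends on how values near 0 are treated.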

How the data were processed

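The authors sequenced 3′ libraries as single-end reads of 75 bases, used Bowtie2 for alignment and Bedtools for counting, in which reads with several alignments were kept, and deposited raw read counts per gene symbol, before their TMM and CPM normalization. Per the labels the build is mm10. Tool versions and the annotation are not given in the sources used here. Each library lists 23282 entries, and for 35 repeated symbols the largest was kept. EdgeR 4.0.16 (R 4.3.3, limma 3.58.1) fitted all 9 libraries by quasi-likelihood with TMM factors and filterByExpr. Calls required an adjusted p under 0.05. Each SE is the absolute fitted log2 fold change divided by the square root of the F statistic of the quasi-likelihood test. For Klra13-ps and Klrg1, with no count in brain, the bound and not the fitted change gives the size. Alternatives were RLE factors, library sizes alone, no filter, a fit of only 2 groups, a block by replicate number, each library left out, the unadjusted threshold of the study (p under 0.05, fold change 1.2) and DESeq2 1.42.0. Sequences and positions come from RefSeq (GRCm38.p6), and shared windows from GENCODE M21, compared with Biopython and Python. Sums with identical counts entered once and ratios with a library left out were added after the data were seen. Pooled ratios carry exact binomial 95% intervals. The test was also run on simulated counts, and no statement here rests on the outcome. The members and all gene lists were chosen with earlier results of these data known. Named are all members, genes of the receptor, partner and ligand lists, the 3 highest markers of a list and the 10 genes most like the members, besides those marked in the text as named after their values were seen. The study's methods call the 3 libraries of a group independent biological replicates, each of pooled mice.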

Additional observations from a re-analysis of the deposited data

How the results depend on the processing

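The fitted log2 fold changes of Klra8 and Klra21 in brain against either blood group stayed past the threshold in all 15 alternative fits. Between NMO_Br_mono and NMO_Bl_mono, 4 members were called lower, 3 to 5 with a library left out, 2 with only those groups in the fit and 8 at the unadjusted threshold. Against Nor_Bl_mono the count was 5, with 3 to 5, 2 and 7 in turn. Over all genes, NMO_Br_mono against NMO_Bl_mono gave 2 higher and 23 lower. The counts were 39 and 71 without the filter, 1 and 6 with 2 groups, 77 and 257 by DESeq2, 150 and 388 unadjusted, and 0 to 5 and 14 to 33 with a library left out. Library sizes alone gave 4 higher. NMO_Br_mono against Nor_Bl_mono gave 3 and 22, with 43 and 72, 15 and 8, 121 and 246, 177 and 411, and 1 to 27 and 10 to 35 in the same order. RLE factors gave 5 higher and library sizes alone 8. NMO_Bl_mono against Nor_Bl_mono gave 0 and 0, then 1 and 1 without the filter, 51 and 21 by DESeq2, 47 and 25 unadjusted, and 0 with any library left out. The cause of these differences was not tested.

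Same-numbered libraries of different groups share a number in their labels. Their deviations from the group means correlated at -0.010 to 0.116 over 9 pairs, and those of other pairs at -0.096 to 0.030. Replicate 1 had the highest share of Rn45s counts in each group (43.6% in Nor_Bl_mono, 42.2% in NMO_Bl_mono and 39.3% in NMO_Br_mono). Whether same-numbered libraries also share mice or handling was not tested. With the replicate number as a block, the calls of Klra8, Klra21 and Klra13-ps held in brain against either blood group. Klrg1 lost its call against both, and Klra7 lost its call against Nor_Bl_mono. Of all genes, 4 and 5 were called higher in brain against NMO_Bl_mono and Nor_Bl_mono. Klrg1 turned to 0.15 between the blood groups.

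Besides Klrg1 under the block, members turned direction only where a library was left out. Klra4 in brain against NMO blood ranged from -11.71 to 0.11, reaching 0.10 and 0.11 without NMO_Br_mono replicates 1 and 3. Between the blood groups, Klra13-ps ranged from -0.89 to 1.11, Klrb1c from -0.28 (-0.09 without Nor_Bl_mono replicate 2) to 0.48, and Klrg1 from -0.75 to 0.68. Without NMO_Bl_mono replicate 1 the median of all genes between the blood groups was -0.45, against -0.16, so small changes there depend on the scaling. NK markers called lower against NMO blood were 5, with 3 without Nor_Bl_mono replicate 3, 8 without NMO_Br_mono replicate 1, 0 with 2 groups and 11 by DESeq2. Depth limits a brain count of 0 to under 0.339 CPM in replicate 1.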
